A study of Mus musculus with 16 samples.

Results

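The microglia genes Cx3cr1, Csf1r, P2ry12, Trem2, Tmem119, C1qa, C1qb, C1qc and Aif1 were followed in the hippocampus of 16 male C57BL/6 wild type mice of 3 months. They were chosen by name, and all rows of the transcript table with one of these gene names were taken, which gave 22 of 80137 transcripts and 9 of 18287 gene names. Each of the 4 groups had 4 mice, and each mouse gave 1 library, made from its left and right hippocampus together. Homecage (HC) mice stayed in their cages without handling, shocks or escape trials. Control (Ctrl) mice were put in the shuttle box without inescapable shocks and had 30 escape trials with foot shocks of 0.4 mA. The remaining mice had 180 inescapable shocks of 0.4 mA on the day before the same 30 trials, and were divided by how often and how fast they escaped into learned helpless mice (LH) and mice that did not become helpless, called non-learned helpless (NLH). All mice were killed 3 h after the test session. LH and NLH mice thus share the shocks and were separated by behavior, not by random assignment.

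Microglia are the resident macrophages of the brain. They derive from the yolk sac, depend on signals through the Csf1 receptor, survey the tissue with motile processes, clear debris and prune synapses with the help of complement. In whole hippocampus they are a minority of the cells, and in bulk tissue fewer microglia and less RNA per microglial cell cannot be told apart. Levels are given in FPKM, fragment numbers made comparable between transcripts of different length and between libraries of different depth, summed here over the transcripts of a gene. FPKM are scaled by length, so levels of different genes can be set side by side.

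LH mice 3 and 4 stood apart from the other 14 libraries. Transcripts listed at exactly 0 numbered 10846 in LH mouse 3 and 15504 in LH mouse 4, against 4872 to 7352 in the other mice. Depth, estimated from the steps between FPKM values, was lowest in LH mouse 4 with 20180000 fragments and highest in Ctrl mouse 2 with 38040000. Summed FPKM over all transcripts ranged from 120208 in LH mouse 4 to 158004 in LH mouse 2, and median-ratio size factors, the typical ratio of a library's genes to their mean level over mice, from 0.822 to 1.201 in the same mice. The main results on the LH group are therefore also given with LH mice 1 and 2 alone in that group, a setting chosen after the data were seen. Those mice stood apart as well, with the 2 largest summed FPKM (150826 and 158004), the 2 largest size factors (1.156 and 1.201) and the 2 largest sums of choroid plexus genes (214 and 317 FPKM). Values with LH mice 1 and 2 alone are on FPKM as deposited unless size factors are named. The tissue label was checked against 9 genes of hippocampal neurons, which summed to 96.5 to 157 FPKM per mouse. Prox1, which marks dentate granule cells, lay between 5.83 and 12.1 FPKM in every mouse.

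All 9 genes were detected in all 16 mice. The most abundant were P2ry12, with a mean of 9.82 FPKM over the 16 mice, and C1qb, with 9.61. Csf1r (7.71), C1qa (7.30) and Cx3cr1 (5.12) followed, then C1qc (3.92), Trem2 (3.60) and Tmem119 (2.82), and Aif1 was the lowest with a mean of 0.779 FPKM. Among all gene names these levels ran from percentile 39.5 for Aif1 to percentile 86.2 for P2ry12. P2ry12 and C1qb could not be ordered, since the means of the pair changed places between groups and each was higher in 2 of 4 HC mice. Csf1r and C1qa overlapped in HC, NLH and LH, as did C1qc and Trem2 in every group. Aif1 was the lowest in every mouse, without overlap with Tmem119 in HC, Ctrl and NLH and with overlap in LH. The fragments behind these values were estimated at 511.5 to 1140 per mouse for Csf1r but 1.5 to 26.9 for Aif1, so the values of Aif1 are the least precise.

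**Figure D1:**
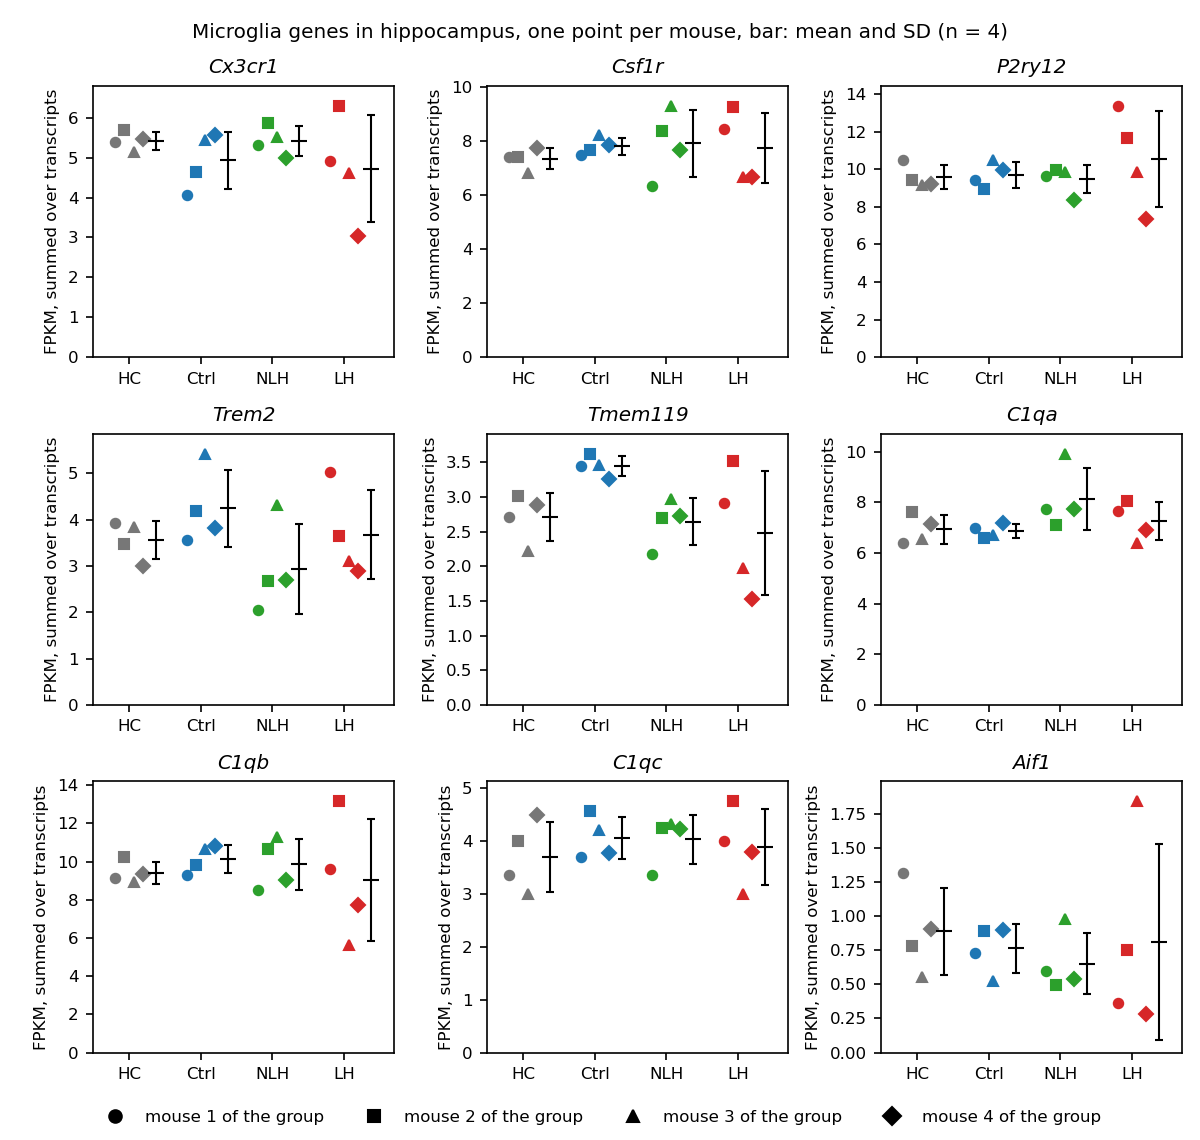
FPKM summed over transcripts for each of the 9 microglia genes (vertical axes, each from 0) in the 4 groups, with 1 symbol per mouse and the mean and SD of 4 mice in black. The LH mice are the most widely spread for 7 of the 9 genes on the log2 scale, and Tmem119 in Ctrl (3.26 to 3.62 FPKM) lies above all HC and NLH mice.

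Positions are those of the GRCm38 annotation (GENCODE vM21). C1qa (chr4:136895917-136898803), C1qc (chr4:136889804-136893065) and C1qb (chr4:136880129-136886187) are neighbours on the minus strand. Trem2 (chr17:48346401-48354147, plus strand) and Aif1 (chr17:35170991-35176068, minus strand) share a chromosome. P2ry12 (chr3:59216272-59262871) and Cx3cr1 (chr9:119901616-120069879) are on the minus strand, as is Tmem119 (chr5:113793729-113800516). Every member row matched an annotated transcript.

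Promoters of C1qb and C1qc are shown because these neighbours had r = 0.702 over the 16 mice as deposited (0.501 after size factors, where 0 pairs of members passed adjustment), and that of P2ry12 because its pair with C1qc had the lowest r of all after division by size factors. They are the bases before the RefSeq start site (GRCm38.p6) without those in an annotated exon, with the letters GAGGAA or their reverse complement TTCCTC, the core bound by the myeloid factor PU.1, in capitals.
C1qb, chr4:136886201-136886450, minus strand: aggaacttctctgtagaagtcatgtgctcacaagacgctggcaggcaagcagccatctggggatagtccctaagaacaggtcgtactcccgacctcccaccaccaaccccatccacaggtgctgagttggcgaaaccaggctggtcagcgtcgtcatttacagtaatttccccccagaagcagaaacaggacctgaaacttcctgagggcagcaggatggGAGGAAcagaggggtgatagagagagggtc
C1qc, chr4:136893066-136893164, minus strand: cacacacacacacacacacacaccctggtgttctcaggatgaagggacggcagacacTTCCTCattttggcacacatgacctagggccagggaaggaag
P2ry12, chr3:59262986-59263235, minus strand: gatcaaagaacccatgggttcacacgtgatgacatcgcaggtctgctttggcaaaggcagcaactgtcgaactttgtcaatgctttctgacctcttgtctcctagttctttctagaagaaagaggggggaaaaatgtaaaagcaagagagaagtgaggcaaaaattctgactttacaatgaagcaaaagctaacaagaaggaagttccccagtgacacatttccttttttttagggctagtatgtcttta
The 250 bases before the start held GAGGAA on either strand in 23.3% of 32851 promoters, and in those of Trem2, C1qb, C1qc and Aif1 among the 6 members of the promoter table. These matches describe the letters and are not measured binding sites.

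Ctrl and HC mice differed in handling, in being placed in the shuttle box and in the escape trials. None of the 9 passed limma at an adjusted p under 0.05, where 0% of all 18287 gene names did, and 0 had an unadjusted p under 0.05, against 2.7% of all gene names. Log2 differences of log2(FPKM + 0.1) ran from -0.17 for Aif1 to 0.35 for Tmem119, with a median of 0.09 against 0.02 over all gene names. The 95% intervals for Csf1r (-0.19 to 0.36), P2ry12 (-0.29 to 0.32) and C1qa (-0.26 to 0.24) were the narrowest, and that of Aif1 was the widest at -1.03 to 0.70.

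Tmem119, a transmembrane protein used to mark resident microglia, had the clearest pattern over groups. Its level was 3.44, 3.62, 3.46 and 3.26 FPKM in the Ctrl mice, 3.45 ± 0.149 (SD, n = 4). HC mice had 2.71, 3.01, 2.22 and 2.88, or 2.70 ± 0.347 (SD, n = 4), and NLH mice 2.17, 2.70, 2.97 and 2.73, or 2.64 ± 0.338 (SD, n = 4). Every Ctrl mouse thus lay above every HC and every NLH mouse, and Tmem119 was the 1 member of 9 whose groups did not overlap in these comparisons, against 5.24% of all gene names in Ctrl vs. HC and 6.04% in NLH vs. Ctrl. LH mice had 2.91, 3.51, 1.98 and 1.52 FPKM, which overlapped with Ctrl through LH mouse 2. By limma the log2 difference was 0.35 ± 0.20 (SE) in Ctrl vs. HC (adjusted p = 1), -0.38 ± 0.20 in NLH vs. Ctrl (adjusted p = 0.920) and -0.53 ± 0.20 in LH vs. Ctrl (unadjusted p = 0.0201, adjusted p = 0.329), so none was a call. Without LH mice 3 and 4 the value in LH vs. Ctrl was -0.10 ± 0.15 (adjusted p = 0.716), and with size factors as well -0.34 ± 0.13 (adjusted p = 0.310). After division by size factors the differences were 0.32 (adjusted p = 1), -0.45 (adjusted p = 0.384) and -0.56 (adjusted p = 0.0961), with standard errors of 0.14. The methods' t-test on FPKM, with no adjustment for the number of genes, called Tmem119 alone of the 9 in Ctrl vs. HC and in NLH vs. Ctrl, where it called 8.5% and 9.57% of the gene names tested. It called 0 of the 9 in LH vs. Ctrl or LH vs. NLH, against 8.01% and 3.5%. The 3 comparisons share the Ctrl mice, in which this gene had its smallest spread.

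Trem2, a lipid-sensing receptor that signals through the adaptor Tyrobp, differed most between NLH and Ctrl. Ctrl mice had 3.56, 4.19, 5.42 and 3.82 FPKM, and NLH mice 2.05, 2.68, 4.32 and 2.69. In 3 of 4 NLH mice the level was below that of every Ctrl mouse, and NLH mouse 3 lay within the Ctrl range. The log2 difference was -0.55 ± 0.21 (SE), with a 95% interval from -1.01 to -0.10 (limma, unadjusted p = 0.0204, adjusted p = 0.735), and -0.63 ± 0.18 after size factors (adjusted p = 0.347). HC mice had 3.93, 3.48, 3.83 and 3.00 FPKM and LH mice 5.03, 3.66, 3.12 and 2.89. HC and LH overlapped with both other groups. LH vs. Ctrl gave -0.22 (adjusted p = 0.738) and LH vs. NLH 0.33 (adjusted p = 0.754). Without LH mice 3 and 4 they were 0.03 ± 0.24 (adjusted p = 0.970), with the sign turned, and 0.58 ± 0.24 (adjusted p = 0.282). With size factors as well they were -0.20 and 0.43. The main coding transcript ENSMUST00000024791.14 alone had -1.08 ± 0.66 (SE; limma, adjusted p = 0.596) in LH vs. Ctrl. In LH vs. NLH it had -0.65 ± 0.66 (adjusted p = 0.762), below 0 where the gene sum lay above. LH mouse 4 had 0.0853 FPKM of this transcript.

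In NLH vs. Ctrl as a whole, 0 of the 9 genes passed the adjusted threshold, against 0.00547% of all gene names, and 1 had an unadjusted p under 0.05, against 5.59%. The median log2 difference of the 9 was -0.04, with 0.06 over all gene names. C1qa was the member with the largest value above 0, at 0.23 ± 0.12 (SE; adjusted p = 0.917). The other 6 members lay between -0.21 and 0.14.

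Learned helpless mice were compared with both other tested groups. In LH vs. Ctrl, 0 of 9 members passed the adjusted threshold in limma, as did 0% of all gene names, and Tmem119 alone had an unadjusted p under 0.05, where 11.5% of all gene names did. In LH vs. NLH, 0 of 9 passed, against 0.0109% of all gene names, and 0 had an unadjusted p under 0.05, against 7.54%. No member was without overlap in LH vs. Ctrl or LH vs. NLH, where 5.59% and 2.11% of all gene names were. The median log2 difference of the members was -0.10 in LH vs. Ctrl (all gene names 0.00) and -0.06 in LH vs. NLH (all gene names -0.06). Without LH mice 3 and 4 these medians were 0.15 and 0.17, beside 0.19 and 0.13 over all gene names, and 0 members passed the adjusted threshold, where 5.41% and 0.0383% of all gene names did. With the same mice after division by size factors, the medians were -0.0870 and 0.0074, beside -0.0022 and -0.0003 over all gene names. In that setting 8 of the 9 members lay below 0 in LH vs. Ctrl, and 0 members passed, where 0.0711% and 0.0219% of all gene names did. After size factors with all LH mice, the medians were -0.13 and -0.02, beside -0.03 and -0.02 over all gene names. Of these settings, the median in LH vs. Ctrl lay above 0 only with LH mice 1 and 2 alone on FPKM as deposited. In LH vs. NLH it lay above 0 with those mice on both scales, and below 0 with all LH mice.

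P2ry12 is the purinergic receptor that guides microglial processes to sites of ATP release. Its differences lay above 0 in the settings given in this paragraph, while their size moved with the libraries kept and the scale. LH mice had 13.4, 11.6, 9.86 and 7.36 FPKM. The span of this group held all HC (9.13 to 10.5), Ctrl (8.93 to 10.5) and NLH (8.36 to 9.96) mice. With all LH mice the log2 difference was 0.09 ± 0.14 in LH vs. Ctrl (95% interval -0.22 to 0.39) and 0.13 ± 0.14 in LH vs. NLH (95% interval -0.18 to 0.43). Without LH mice 3 and 4 it was 0.36 ± 0.10 (adjusted p = 0.0562) and 0.40 ± 0.10 (adjusted p = 0.157), and with size factors as well 0.12 ± 0.10 (adjusted p = 0.662) and 0.24 ± 0.10 (adjusted p = 0.482). After size factors with all mice it was 0.06 and 0.17.

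Cx3cr1, the receptor for the neuronal chemokine Cx3cl1, was at 5.38, 5.69, 5.14 and 5.46 FPKM in HC and at 4.06, 4.65, 5.44 and 5.56 in Ctrl. NLH mice had 5.32, 5.87, 5.51 and 4.98, and LH mice 4.93, 6.29, 4.63 and 3.03. LH mouse 4 was the lowest and LH mouse 2 the highest of all 16. The 95% interval was -0.46 to 0.27 for LH vs. Ctrl, and for LH vs. NLH it was -0.60 to 0.12, around differences of -0.10 and -0.24. Leaving out LH mice 3 and 4 turned both above 0, to 0.18 ± 0.14 (adjusted p = 0.436) and 0.04 ± 0.14 (adjusted p = 0.920), and with size factors as well they were -0.05 and -0.12. Csf1r, the receptor on which microglial survival depends (chr18:61100598-61132149, plus strand), had the difference closest to 0 in LH vs. Ctrl. Its level was 7.48, 7.67, 8.23 and 7.86 FPKM in Ctrl and 8.44, 9.25, 6.68 and 6.66 in LH. Its log2 difference was -0.02 ± 0.13 in LH vs. Ctrl (95% interval -0.30 to 0.25) and -0.03 ± 0.13 in LH vs. NLH (-0.31 to 0.24). Leaving out the same 2 mice also turned these above 0, to 0.18 ± 0.12 (adjusted p = 0.409) and 0.17 ± 0.12 (adjusted p = 0.533), or to -0.06 and 0.0074 with size factors as well.

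**Figure D2:**
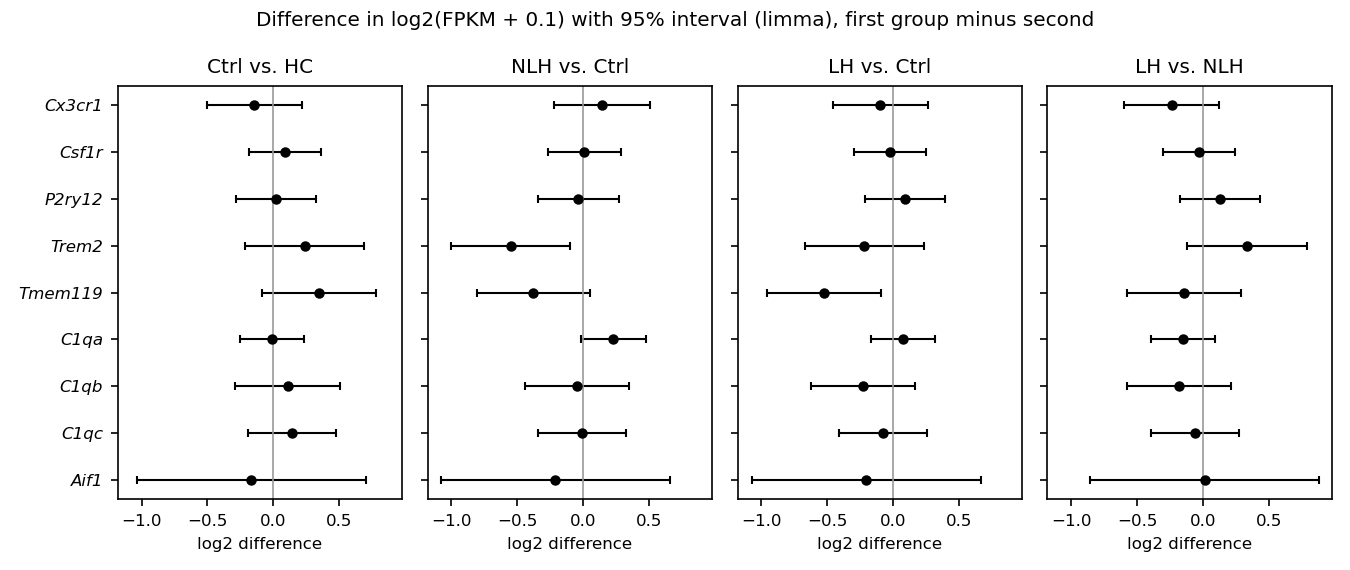
Log2 difference of log2(FPKM + 0.1) (horizontal axis, first group minus second) with its 95% interval from limma for the 9 genes (vertical axis) in the 4 comparisons. The intervals of 34 of the 36 differences include 0. The exceptions, Trem2 in NLH vs. Ctrl and Tmem119 in LH vs. Ctrl, have adjusted p of 0.735 and 0.329.

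C1qa, C1qb and C1qc encode the chains of C1q, the recognition molecule of the classical complement pathway, which microglia make in brain. C1qb had 5.61 FPKM in LH mouse 3 and 13.1 in LH mouse 2, with 9.63 and 7.71 in LH mice 1 and 4. It lay between 8.49 and 11.3 FPKM in the 12 other mice, so the LH group held both the lowest and the highest values. C1qa ranged from 6.397 in LH mouse 3 to 9.92 in NLH mouse 3, and C1qc from 3.00 in HC mouse 3 to 4.75 in LH mouse 2. The log2 difference in LH vs. Ctrl was 0.07 ± 0.12 (SE) for C1qa, -0.23 ± 0.19 for C1qb and -0.07 ± 0.16 for C1qc, with adjusted p of 0.8497, 0.672 and 0.900. With LH mice 1 and 2 alone these differences were 0.19 ± 0.12, 0.15 ± 0.14 and 0.11 ± 0.16 (adjusted p of 0.352, 0.535 and 0.739), so those of C1qb and C1qc turned from below to above 0. With size factors as well they were -0.04, -0.09 and -0.13, all below 0. The ratio of C1qb to C1qa was 1.32 on average over the 16 mice, lowest in LH mouse 3 (0.878) and highest in LH mouse 2 (1.63). Group means of this ratio were 1.36 ± 0.0525 for HC, 1.48 ± 0.110 for Ctrl, 1.23 ± 0.184 for NLH and 1.22 ± 0.316 for LH (SD, n = 4), where LH mice 1 and 2 had 1.25 and 1.63. C1qb exceeded C1qa in every mouse other than LH mouse 3. C1qb to C1qc averaged 2.45 and C1qa to C1qc 1.88.

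Aif1, which encodes the actin-binding protein known as Iba1, was at 1.32, 0.781, 0.554 and 0.904 FPKM in HC. Ctrl mice had 0.730, 0.894, 0.526 and 0.902, NLH mice 0.598, 0.495, 0.979 and 0.538, and LH mice 0.366, 0.755, 1.84 and 0.281. LH mice 3 and 4 held the highest and the lowest level of all. The 95% interval of LH vs. Ctrl, -1.07 to 0.67, was the widest of the 9, and without LH mice 3 and 4 the difference was -0.43 ± 0.34 (adjusted p = 0.478).

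The spread between mice was widest in LH. The SD on the log2 scale had a median over the 9 genes of 0.115 for HC, 0.102 for Ctrl, 0.194 for NLH and 0.366 for LH. The same medians over the 10436 gene names that averaged 1 FPKM or more were 0.149, 0.140, 0.199 and 0.360. The LH group had the largest SD for 7 of the 9 members and for 75.5% of all these gene names. Trem2 and C1qa had theirs in NLH. Between LH mice 1 and 2 alone the median SD was 0.188 for the members and 0.135 for all these gene names.

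On FPKM as deposited, most pairs of members had an r above 0 over the 16 mice, as did most pairs of other genes. Of the 36 pairs of genes, 31 had a Pearson's r above 0, with a median of 0.416, where pairs of other genes with a mean FPKM of at least 1 had a median of 0.268 and 75.1% above 0. After Benjamini-Hochberg adjustment over the 36 pairs, 5 had a permutation p under 0.05 by Pearson's r and 5 by Spearman's rho, 4 of them by both. Csf1r and C1qb were the closest pair, with r = 0.790 (permutation test, adjusted p = 0.00396) and rho = 0.859 (adjusted p = 0.00252), and r = 0.822 without NLH mice 1 and 3, the farthest from the median of Csf1r. Csf1r and C1qc had r = 0.752 (adjusted p = 0.0151), rho = 0.732 (adjusted p = 0.0171) and r = 0.743 without the same 2 mice. Tmem119 and C1qb had r = 0.729 (adjusted p = 0.0168), rho = 0.768 (adjusted p = 0.0144) and r = 0.611 without LH mice 3 and 4. The neighbours C1qb and C1qc had r = 0.702 (adjusted p = 0.0151) and rho = 0.668 (adjusted p = 0.0434), with r = 0.475 without LH mice 2 and 3, so this relation rested in part on those mice. C1qa, from the same cluster of genes, had r = 0.4997 with C1qb and 0.461 with C1qc, with unadjusted p of 0.0621 and 0.0709. Aif1 went with none of the others, with r from -0.223 to 0.330 over its 8 pairs.

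These correlations moved with the scale of the libraries. After division by size factors the median r of the 36 pairs was 0.0687 with 22 above 0, and that of other genes was -0.0012. The r of Csf1r and C1qb became 0.577, of Csf1r and C1qc 0.630, of Tmem119 and C1qb 0.568 and of C1qb and C1qc 0.501. These 4 kept an unadjusted p under 0.05, but 0 of the 36 passed after adjustment, where the smallest adjusted p was 0.200. P2ry12 and C1qc went from r = 0.108 as deposited to r = -0.606 after scaling, the lowest of all pairs. The permutation test gave this pair an unadjusted p of 0.0131 and an adjusted p of 0.200. With it, 5 pairs had an unadjusted p under 0.05. With group means removed the median was 0.502, without LH mice 3 and 4 it was 0.280, and without the LH group 0.268.

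**Figure D3:**
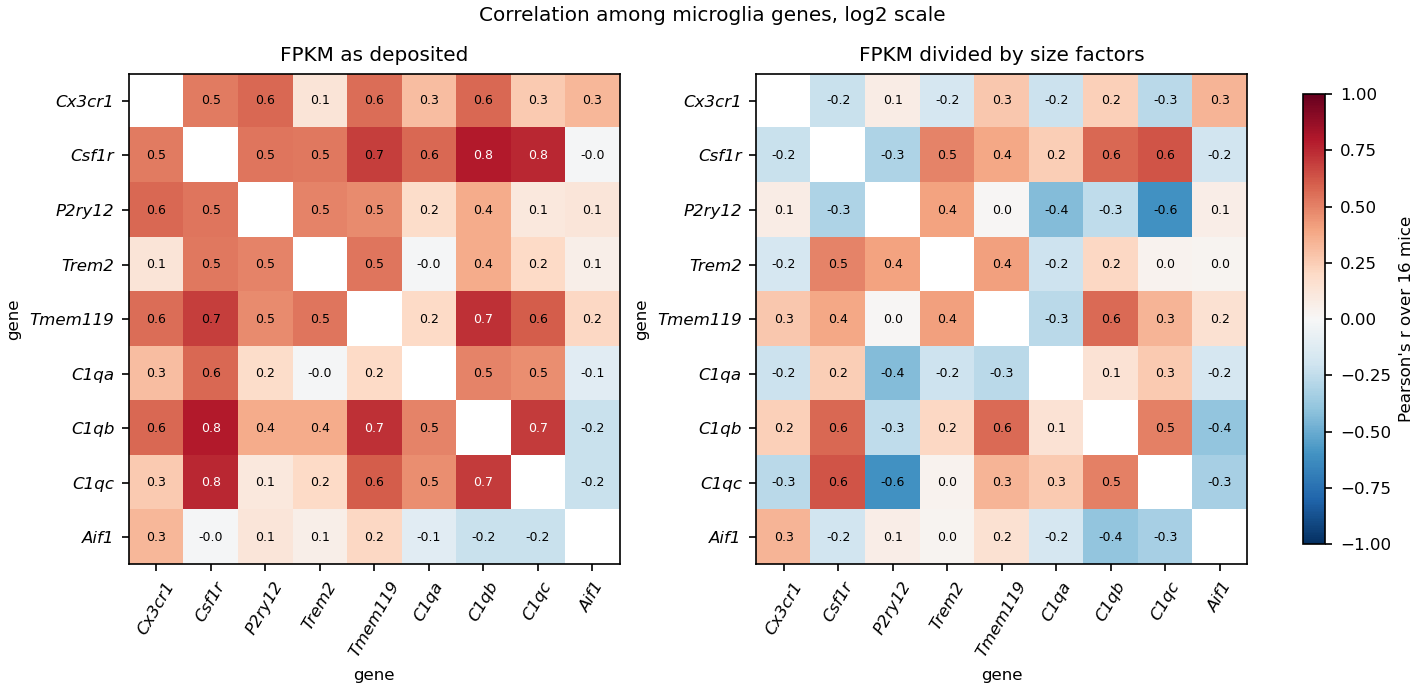
Pearson's r of log2(FPKM + 0.1) over 16 mice for each pair of the 9 genes, with FPKM as deposited on the left and divided by size factors on the right. Color runs from -1 (blue) to 1 (red). The block around Csf1r, Tmem119, C1qb and C1qc keeps values above 0 on the right, while most other pairs move toward or below 0.

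The summed FPKM of the 9 genes ran from 46.2 to 51.7 in HC and from 48.7 to 55.1 in Ctrl. It was 45.7 to 58.5 in NLH and 40.2 to 61.1 in LH, with the lowest sum in LH mouse 4 and the highest in LH mouse 2. Divided by size factors, the sums ran from 45.3 in LH mouse 3 to 54.6 in Ctrl mouse 3, with LH mice 1 to 4 at 48.7, 50.9, 45.3 and 48.9. As a description, the mean of the 9 standardized levels had r = 0.861 and rho = 0.824 with the size factor of the mouse, and r = 0.715 without LH mice 2 and 4. Both measures come from the same libraries.

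**Figure D4:**
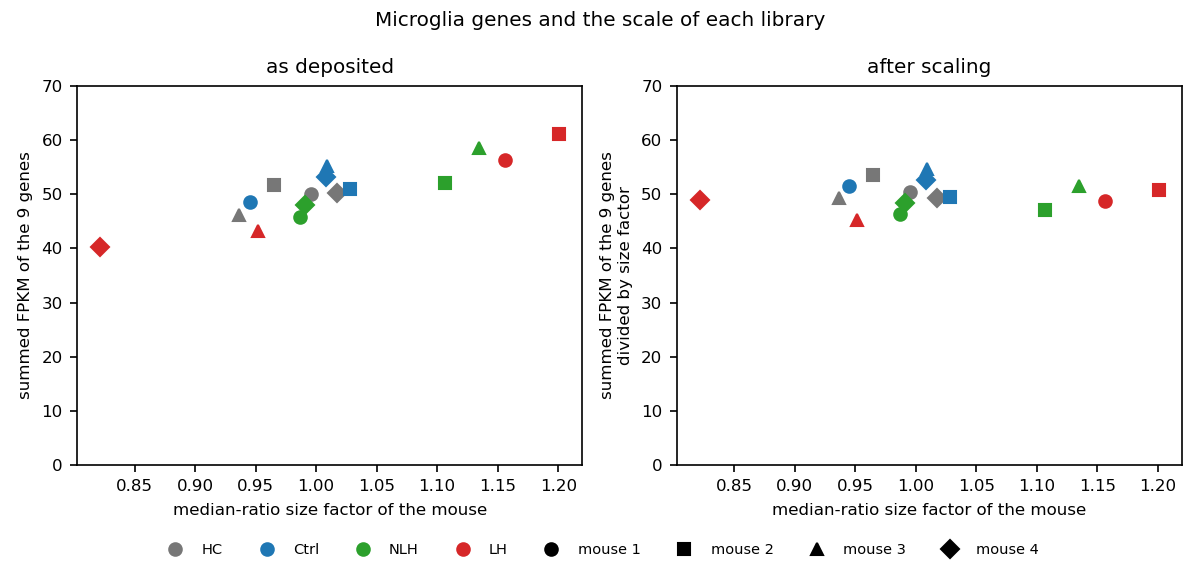
Summed FPKM of the 9 genes per mouse (vertical axes, from 0) against the size factor of the mouse (horizontal axes), as deposited on the left and after division by the size factor on the right. Colors mark groups and symbols mouse numbers. The sums climb with the size factor on the left, from 40.2 to 61.1 FPKM, and lie between 45.3 and 54.6 on the right.

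The genes whose levels over the 16 mice were most like the mean of the members (mean FPKM of 1 or more) were Ncs1 (r = 0.986), Slc1a3 (0.982), Ppp1r9b (0.964), Prdx6 (0.964), Mmp17 (0.961), Smarcb1 (0.954), Anxa6 (0.947), Agap2 (0.947), Mtrr (0.946) and Cst3 (0.945). After size factors Slc1a3 (0.902), Ncs1 (0.897), Ppp1r9b (0.883), Agap2 (0.861) and Mmp17 (0.860) were still among the 10 most like genes. The others were then Ddn (0.887), Bcl11b (0.873), Cabp7 (0.868), Camk2a (0.867) and Slit1 (0.866). Mtrr was then at place 763 with r = 0.513, Anxa6 at place 169 with 0.662 and Smarcb1 at place 104 with 0.7003. Slc1a3 is the glutamate transporter of astrocytes, and Cst3 encodes a protease inhibitor secreted by several brain cell types. None is among the 17 further microglia genes listed here, of which Lgmn was the closest at r = 0.839. The median r with the members was 0.672 for 16 of those microglia genes, 0.810 for 8 astrocyte genes, 0.432 for 8 general neuron genes and 0.637 for 9 genes of hippocampal neurons. After size factors these medians were 0.229, 0.327, -0.534 and 0.498, and single neuron genes ran from -0.819 for Stmn2 to 0.671 for Slc17a7. The points share the libraries and their scale.

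Transcripts within the genes varied more than the genes. At transcript level 0 of the 22 rows passed limma's adjusted threshold in any comparison, where 0.00374%, 0.0125%, 0.0462% and 0.0412% of 80137 transcripts did in Ctrl vs. HC, NLH vs. Ctrl, LH vs. Ctrl and LH vs. NLH. By unadjusted p under 0.05 in limma, 0, 0, 2 and 3 of the 22 stood out in these comparisons, against 3.45%, 5.12%, 10.7% and 8.72% of all transcripts. The methods' t-test called 1, 1, 1 and 0 of the 22, against 6.68%, 7.2%, 7.69% and 4.47%. Groups did not overlap for 1, 2, 1 and 1 of the 22, against 4.48%, 5.02%, 5.85% and 3.18% of all transcripts. For Trem2, the main protein-coding transcript ENSMUST00000024791.14 made up 46.5% to 83.4% of the gene in 15 mice and 2.95% in LH mouse 4. The processed transcript ENSMUST00000148545.1, of 526 bases, was at 2.79 FPKM in that mouse, at 2.16 in LH mouse 1, 1.98 in Ctrl mouse 3 and 0.706 in HC mouse 3. It was at most 0.233 in the other 12. Its log2 difference in LH vs. NLH was 3.05 ± 1.05 (SE; unadjusted p = 0.0112, adjusted p = 0.442), the largest among the members' transcripts, and 2.97 ± 1.27 (adjusted p = 0.411) with LH mice 1 and 2 alone. The second coding transcript ENSMUST00000113237.3 was at 0.1305, 0.444, 0.470 and 0 FPKM in LH and at 0.739, 0.887, 0.735 and 0.426 in Ctrl. Its log2 difference in LH vs. Ctrl was -1.42 ± 0.53 (SE; adjusted p = 0.379), or -0.90 ± 0.45 (adjusted p = 0.453) without LH mouse 4 and -1.13 ± 0.51 (adjusted p = 0.340) with LH mice 1 and 2 alone.

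P2ry12 was measured as 5 coding transcripts. ENSMUST00000170388.5 held 42.5% to 86.6% of the gene in 15 mice and 97.3% in LH mouse 4. In LH mouse 4 the short ENSMUST00000199675.1 was listed at 0, against 0.702 to 3.42 FPKM in the other 15. Aif1 had its main transcript ENSMUST00000172693.7 at 0 in LH mouse 4 and near 0 in LH mouse 3. LH mouse 3 had 1.84 FPKM of the processed transcript ENSMUST00000172679.1, which was listed under 0.1 in all other mice, so the high Aif1 of that mouse came from this row. Cx3cr1 and Csf1r were more even. The main transcript of Cx3cr1 held 71.4% to 94.6% of the gene and that of Csf1r 77.6% to 91.3%. Tmem119, C1qa and C1qb had 1 transcript each.

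**Figure D5:**
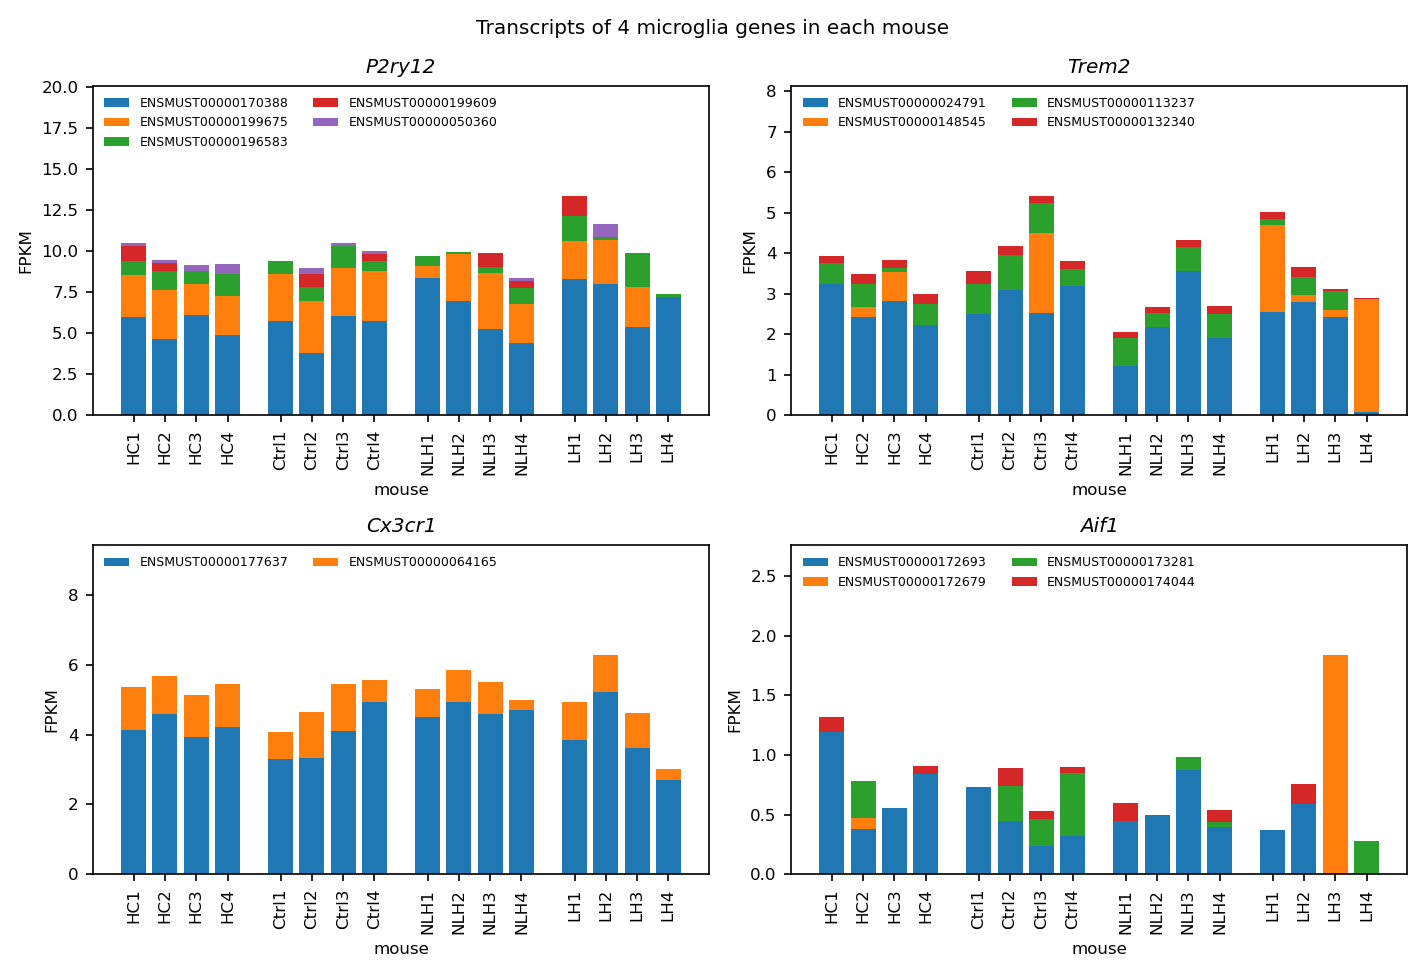
FPKM of each transcript, stacked per mouse, for P2ry12, Trem2, Cx3cr1 and Aif1 (vertical axes, from 0; horizontal axes, mice by group). LH mouse 4 has almost no main coding Trem2 transcript (2.95% of the gene), and LH mouse 3 has an Aif1 transcript at 1.84 FPKM that is under 0.1 elsewhere.

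Partners of the members gave 0 calls in any comparison of all 16 mice. The 9 genes for ligands and signalling included Cx3cl1, the ligand of Cx3cr1, at 42.8 FPKM on average. Its log2 difference was -0.02 ± 0.15 in LH vs. Ctrl, or 0.30 ± 0.10 (adjusted p = 0.0832) with LH mice 1 and 2 alone. With size factors as well it was 0.06 ± 0.07 (adjusted p = 0.788). Named after their values were seen, the ligands of Csf1r, Csf1 and Il34, averaged 2.23 and 4.27 FPKM. Their differences in LH vs. Ctrl were -0.05 ± 0.18 and -0.01 ± 0.19. With LH mice 1 and 2 alone they were -0.13 ± 0.21 and 0.28 ± 0.17, or -0.35 and 0.05 with size factors as well. Apoe, a lipoprotein that Trem2 binds, averaged 151 FPKM, with 0.40 ± 0.14 in NLH vs. Ctrl (adjusted p = 0.712). Syk, the kinase downstream of the Trem2 adaptor, averaged 0.391 FPKM, with -0.47 ± 0.22 in LH vs. NLH (adjusted p = 0.660). With LH mice 1 and 2 alone this was -0.37 ± 0.20, or -0.49 with size factors as well. Of 5 transcription factors, Spi1, which encodes PU.1, was at 0.886 to 1.47 FPKM in Ctrl, above all LH mice (0.0825 to 0.721) and all NLH mice (0.144 to 0.869), while HC mice had 0.318 to 1.56. Its difference was -1.53 ± 0.50 in LH vs. Ctrl (adjusted p = 0.250), -1.07 ± 0.50 in NLH vs. Ctrl (adjusted p = 0.883) and -0.45 ± 0.50 in LH vs. NLH (adjusted p = 0.847). With LH mice 1 and 2 alone it was -0.87 ± 0.53 against Ctrl and 0.20 ± 0.53 against NLH. With size factors as well it was -1.07 and 0.07. Groups did not overlap for 5.59% of all gene names in LH vs. Ctrl and for 6.04% in NLH vs. Ctrl. Cebpa averaged 0.435 FPKM, with -1.90 ± 0.73 in LH vs. NLH (adjusted p = 0.577). With LH mice 1 and 2 alone this was -1.06 ± 0.86, or -1.10 with size factors as well.

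The 17 further microglia genes had a median log2 difference of -0.14 for LH vs. Ctrl (all gene names 0.00) and of -0.11 for LH vs. NLH (all gene names -0.06), with 0 calls. With LH mice 1 and 2 alone these medians were 0.20 in both, beside 0.19 and 0.13 over all gene names, so their sign turned, again with 0 calls. With size factors as well they were -0.03 and 0.04, beside -0.0022 and -0.0003, so the sign turned in LH vs. NLH only. Ctss, which encodes a lysosomal protease, averaged 16.1 FPKM, with 0.06 ± 0.11 in LH vs. Ctrl. With LH mice 1 and 2 alone this was 0.21 ± 0.11, or -0.03 with size factors as well. Cd53, a leukocyte tetraspanin, was at 1.31 to 1.76 FPKM in NLH, below all Ctrl mice (2.06 to 2.13) and all LH mice (1.98 to 2.94), while HC mice had 1.35 to 2.07. Its difference of 0.69 ± 0.17 in LH vs. NLH had an unadjusted p of 0.000864 and an adjusted p of 0.299 (limma). With LH mice 1 and 2 alone it was 0.88 ± 0.18 (adjusted p = 0.0944). With size factors as well it was 0.73 ± 0.18 (adjusted p = 0.235). NLH vs. Ctrl gave -0.53 ± 0.17 (unadjusted p = 0.00605, adjusted p = 0.589 in limma) and LH vs. Ctrl 0.16 ± 0.17 (adjusted p = 0.763). Groups did not overlap for 2.11% of all gene names in LH vs. NLH and for 6.04% in NLH vs. Ctrl. Entpd1, an enzyme that degrades extracellular ATP, had -1.19 ± 0.42 in LH vs. Ctrl (adjusted p = 0.290), with 1 Ctrl mouse at 9.90 FPKM and the highest LH mouse at 1.45. Without that Ctrl mouse the difference was -0.58 ± 0.22 (adjusted p = 0.478). With LH mice 1 and 2 alone it was -0.89 ± 0.51, or -1.11 with size factors as well.

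Complement genes outside C1q numbered 14, with 0 calls and a median of -0.09 for LH vs. Ctrl and of -0.18 for LH vs. NLH, beside 0.00 and -0.06 over all gene names. With LH mice 1 and 2 alone the medians were 0.21 and 0.19, beside 0.19 and 0.13, or 0.0064 and 0.0488 with size factors as well. With these LH mice and FPKM as deposited, the regulator Cd55 passed the adjusted threshold in LH vs. Ctrl at 0.99 (adjusted p = 0.0229, limma). Cd55 was named after its values were seen. It was 1 call among 14 genes, where 989 of all 18287 gene names passed. After size factors 0 genes of any list passed in this setting, with 13 of all gene names. C4b, which C1q acts upstream of, was at 1.93 to 2.48 FPKM in LH, below all Ctrl (2.83 to 4.40) and all NLH (2.66 to 3.92) mice. Its differences were -0.58 ± 0.17 in LH vs. Ctrl (adjusted p = 0.209) and -0.57 ± 0.17 in LH vs. NLH (adjusted p = 0.460). With LH mice 1 and 2 alone they were -0.44 ± 0.20 and -0.43 ± 0.20, or -0.67 and -0.59 with size factors as well. Groups did not overlap for 5.59% of all gene names in LH vs. Ctrl and for 2.11% in LH vs. NLH. Csmd1, a complement regulator of neurons, averaged 15.6 FPKM, with 0.04 ± 0.09 in LH vs. Ctrl. Cr1l, a regulator of C3 convertase, averaged 3.20 FPKM with -0.28 ± 0.32. With LH mice 1 and 2 alone these values were -0.10 ± 0.08 and 0.21 ± 0.34. With size factors as well they were -0.34 ± 0.09 (adjusted p = 0.185) and -0.03 ± 0.34. Casp1, the inflammatory caspase, was the gene with the smallest p of 15 genes of inflammation and antigen presentation. It lay at 0.708 to 1.07 FPKM in LH, above all Ctrl mice (0.252 to 0.532), with 0.95 ± 0.23 (unadjusted p = 0.000668, adjusted p = 0.139), while HC mice had 0.522 to 0.728. With LH mice 1 and 2 alone it was 0.82 ± 0.25 (adjusted p = 0.0652), or 0.61 ± 0.24 (adjusted p = 0.336) with size factors as well. Of all gene names, 5.59% had no overlap in LH vs. Ctrl. B2m, the light chain of MHC class I, averaged 11.7 FPKM with 0.26 ± 0.18 in LH vs. Ctrl. Nfkbia, the NF-kB inhibitor, averaged 1.91 FPKM with -0.45 ± 0.22. With LH mice 1 and 2 alone these values were 0.42 ± 0.14 and -0.02 ± 0.17, or 0.18 and -0.25 with size factors as well. Of 13 genes known from disease-associated microglia, Ctsd (44.5 FPKM) and Ctsb (32.5 FPKM) had 0.02 ± 0.20 and -0.10 ± 0.15 in LH vs. Ctrl. With LH mice 1 and 2 alone they had 0.43 ± 0.14 (adjusted p = 0.0792) and 0.24 ± 0.09 (adjusted p = 0.134). With size factors as well these were 0.19 and -0.0031. Named after their values were seen, the tetraspanin Cd63 of this list and the cytokine Il1b of the inflammation list passed in LH vs. Ctrl with LH mice 1 and 2 alone, at 0.83 (adjusted p = 0.0293) and 1.01 (adjusted p = 0.0387, limma). These were 1 call among 13 and 1 among 15, in the setting where 989 of all gene names passed, and neither passed after size factors. Clec7a averaged 0.0741 FPKM and was listed at 0 in all 4 LH mice.

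Some members are also made by other macrophages, so the markers of these were checked. The 7 genes of border macrophages, all measured, had summed FPKM of 1.19 to 1.61 for HC, 1.32 to 1.95 for Ctrl, 1.51 to 3.38 for NLH and 1.23 to 3.06 for LH, with 0 calls. In NLH vs. Ctrl all 7 had values above 0, with a median log2 difference of 0.44 (all gene names 0.06) and 0 with an unadjusted p under 0.05, and 6 of 7 lay above 0 after size factors. The 7 genes of endothelial cells and pericytes also all had values above 0 there, with a median of 0.26. The most abundant border macrophage genes, Mrc1 and F13a1, averaged 0.420 and 0.375 FPKM, and Cd163 averaged 0.214. The 4 measured genes of blood myeloid cells summed to at most 0.811 FPKM in any mouse and to 0 in at least 1 mouse of each group. S100a9 and S100a8 averaged 0.116 and 0.0953 FPKM and were listed at 0 in all HC mice. Choroid plexus genes varied widely within groups, with sums of 19.1 to 125 FPKM in HC and of 214, 317, 95.6 and 13.9 in LH mice 1 to 4. The setting with LH mice 1 and 2 alone thus kept those with the most, and their median log2 difference was then 1.39 for LH vs. Ctrl, and for LH vs. NLH it was 1.85, against -0.21 and 0.32 with all 4 LH mice, with 0 calls. Their part in the values of the members was not tested.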

How the data were processed

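RNA-seq of mouse hippocampus gave 1 library of total RNA per mouse. According to the methods, the authors aligned reads to mm10 with HISAT2 (the submitters' processing notes name STAR 2.42a), assembled and merged transcripts with StringTie 1.2.3 and quantified them with Cufflinks. The deposited values are FPKM per transcript and mouse, not read counts, and were not scaled further between mice. Of 80137 transcripts, 61220 carried a gene name. Whether the libraries kept strand is not given in the sources used here.

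FPKM were summed per gene name. Limma 3.58.1 in R 4.3.3, with data.table at version 1.17.8 and with trend and robust moderation, took log2(FPKM + 0.1) of the 16 mice and estimated a mean for each of the 4 groups, two-sided, with Benjamini-Hochberg adjustment over 18287 gene names or 80137 transcripts. Fold changes of low genes are understated on this scale. Since FPKM keep no counts, depth was estimated from value steps of 1962 loci with a single transcript over 2000 bases, taking fragments to be 200 bases long, with 65.5% to 73.8% of values within 0.1 of a whole fragment (20% by chance). Correlations used 100000 permutations (Python 3.11.15, numpy 2.4.6, pandas 2.3.3, scipy 1.17.1, matplotlib 3.10.9). The scripts were tested on simulated data first. The study's own test, the methods' t-test on FPKM at an unadjusted p under 0.05, was an alternative, beside other pseudocounts, a mean FPKM of at least 1, size factors, a replicate block, only the 8 mice compared, no trend and no robust moderation, and each mouse left out.

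The members and the 16 other gene lists, written from general knowledge, were chosen with earlier results of these data known. Named genes were all members and, of each other list, any gene past the adjusted threshold, otherwise the 2 most abundant and those with the smallest p against Ctrl and against NLH in LH mice. This rule also gave genes of neurons, astrocytes, oligodendrocytes, vessels, choroid plexus, red blood cells and striatum, whose values are left out here because they are no members or partners. Some genes that the rule names are not reported here. None of the 16 lists held a gene past the adjusted threshold in the main limma fit, on all 16 mice and FPKM as deposited. Genes most like the members were the 10 with the highest r. Mice are the replicates, and p-values measure the spread between them.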

Additional observations from a re-analysis of the deposited data

Results flagged for a closer look

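C1qc in NLH mouse 1, at 3.35 FPKM, lay far from the other 3 mice of its group, at 4.22, 4.25 and 4.33 FPKM. The gap was 0.892 of the range of the group, above Dixon's critical value for 4 samples. This was 1 of 52 groups tested in this way, and chance gives about 1 in 20.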

How the results depend on the processing

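In LH vs. Ctrl, LH vs. NLH, NLH vs. Ctrl and Ctrl vs. HC, 0 member genes passed the adjusted threshold under any limma setting run, and 0 member transcripts. The methods' t-test, unadjusted, called 1 member gene in Ctrl vs. HC and 1 in NLH vs. Ctrl (Tmem119 in both, at 0.34 and -0.37) and 1 member transcript in each of Ctrl vs. HC, NLH vs. Ctrl and LH vs. Ctrl. It called 11, 19, 8 and 5 genes of the 16 other lists in Ctrl vs. HC, NLH vs. Ctrl, LH vs. Ctrl and LH vs. NLH, where the main limma fit called 0. It tested 141 or 142 genes of these lists, and its shares over all gene names were 8.5%, 9.57%, 8.01% and 3.5%. The lists gave 0 to 4 calls in LH vs. Ctrl with 1 mouse left out. The 4, with Cd55, Il1b and Mobp among them and 191 of all gene names called, came without LH mouse 4, which has the most transcripts at 0. Without LH mice 3 and 4, an alternative chosen after the data were seen, the lists gave 10 calls and all gene names 989, with 951 higher. With size factors in that setting the lists gave 0 calls and all gene names 13, with 8 higher. Median r among members was 0.0687 after size factors, 0.280 without LH mice 3 and 4, 0.268 without the LH group, and 0.296 to 0.505 with 1 mouse left out, lowest without LH mouse 4.

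Of the 36 differences of member genes, 21 changed sign in at least 1 other setting, and these were at most 0.24 in size as reported. Size factors gave -0.0095 for P2ry12 in Ctrl vs. HC, and -0.0681 and 0.0118 for Csf1r in NLH vs. Ctrl and LH vs. NLH. The methods' scale gave 0.0779 for Aif1 in LH vs. Ctrl, and a pseudocount of 0.01 gave -0.025 for it in LH vs. NLH. Without LH mice 3 and 4, LH vs. Ctrl became 0.15 for C1qb, 0.11 for C1qc, 0.18 for Csf1r, 0.18 for Cx3cr1 and 0.0329 for Trem2, and LH vs. NLH became -0.21 for Aif1, 0.20 for C1qb, 0.12 for C1qc, 0.17 for Csf1r, 0.0412 for Cx3cr1 and 0.27 for Tmem119. With size factors as well, the differences of opposite sign to those reported were -0.0445 for C1qa in LH vs. Ctrl, and -0.34 for Aif1, 0.0361 for C1qb, 0.0074 for Csf1r and 0.12 for Tmem119 in LH vs. NLH. With 1 mouse left out, signs changed within these ranges. In Ctrl vs. HC they were -0.35 to 0.0253 for Aif1, -0.0466 to 0.0364 for C1qa and -0.0195 to 0.0629 for P2ry12. In NLH vs. Ctrl they were -0.11 to 0.0228 for C1qb, -0.0531 to 0.0745 for C1qc, -0.0715 to 0.11 for Csf1r and -0.0749 to 0.0207 for P2ry12. In LH vs. Ctrl they were -0.67 to 0.11 for Aif1, -0.17 to 0.0392 for C1qc, -0.11 to 0.0445 for Csf1r, -0.25 to 0.0966 for Cx3cr1 and -0.0337 to 0.25 for P2ry12. In LH vs. NLH they were -0.45 to 0.33 for Aif1, -0.39 to 0.0174 for C1qb, -0.16 to 0.0496 for C1qc, -0.13 to 0.0486 for Csf1r and -0.33 to 0.0526 for Tmem119. The cause was not tested.

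Mouse numbers did not pair mice, with a median r of -0.023 over 24 pairs of the same number. With the number as a replicate block, member calls stayed at 0 genes and 0 transcripts in each comparison, and the unadjusted p was 0.0222 for Tmem119 in LH vs. Ctrl and 0.0209 for Trem2 in NLH vs. Ctrl. Summed per gene name, Ensembl transcripts alone equal the reported sums, since assembled transcripts carry no gene name. At transcript level a fit on the 61220 Ensembl transcripts, added after the data were seen, called 0 of the 22 member transcripts in each comparison. Also, Aif1 has no value at a mean FPKM of at least 1. Depth limits Aif1 most.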
